A study of Mus musculus with 12 samples.

Results

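The genes described here are 38 lysosomal genes, taken by symbol from the 22013 entries of the deposited mouse expression table. They encode 11 cysteine proteases (10 cathepsins and legumain), 3 aspartic or serine proteases, 9 glycosidases including lysozyme, 2 sulfatases, 5 soluble proteins of lipid breakdown and 8 membrane proteins. Each symbol matched 1 entry, and all 38 passed the filter on low counts that left 13928 genes for testing. The series held 12 RNA-seq libraries, 3 for each of 4 groups. All 12 libraries were labelled as aortic endothelial cells of mice infused with angiotensin II (Ang II), a peptide hormone that raises blood pressure, and no library came from a mouse without Ang II. The 4 groups were Glra2 global knockout (KO) mice given glycine, Glra2 KO mice given saline, wild-type (WT) mice given glycine and WT mice given saline, all by intraperitoneal injection. Glycine was labelled as 800 mg/kg per day, except for KO glycine library 5, whose label reads 80 mg/kg per day. Glra2 is the gene of the glycine receptor's α2 subunit, and the study addressed what that receptor does in vasodilation that depends on the endothelium. The labels give neither age, sex nor strain of the mice.

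Lysosomes are acidic organelles in which proteins, glycans and lipids delivered by endocytosis, phagocytosis and autophagy are broken down by acid hydrolases. Most of these enzymes are made as inactive precursors, carried to the lysosome by mannose-6-phosphate receptors and matured there by proteolysis, while heavily glycosylated membrane proteins line the organelle. Every cell type of the vessel wall has lysosomes, and macrophages are known for very high levels of cathepsins, lysozyme and CD68.

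Across the 12 libraries most of these genes were lowest in WT saline and highest in KO saline, with both glycine groups between them. Of the 38 genes, 26 had their lowest group mean in WT saline, 24 their highest in KO saline, and 21 had both, or 55.3% against 13.7% of all genes tested. Summed over the 38 genes, the level was 21732 to 22659 CPM (counts rescaled for the size of each library) in KO glycine, 28524 to 34915 CPM in KO saline, 19571 to 19897 CPM in WT glycine and 10511 to 13024 CPM in WT saline. The genes took 2.37 to 2.78% of all counts in KO glycine, 2.34 to 3.52% in KO saline, 2.0 to 2.33% in WT glycine and 0.839 to 0.994% in WT saline. Without Lyz2, the most abundant of them, the order of the group sums was the same, at 15419 to 16976 CPM in KO glycine, 18775 to 22323 CPM in KO saline, 13718 to 14326 CPM in WT glycine and 8050 to 9341 CPM in WT saline. Each of 18 genes had all 3 WT saline libraries below the 9 other libraries, and each of 10 genes had all 3 KO saline libraries above the 9 others. Over all genes tested the shares with these patterns were 3.25% and 3.26%. Each library gives 1 value per gene over all its cells, so fewer cells of a type and less RNA per cell cannot be told apart.

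**Figure D1:**
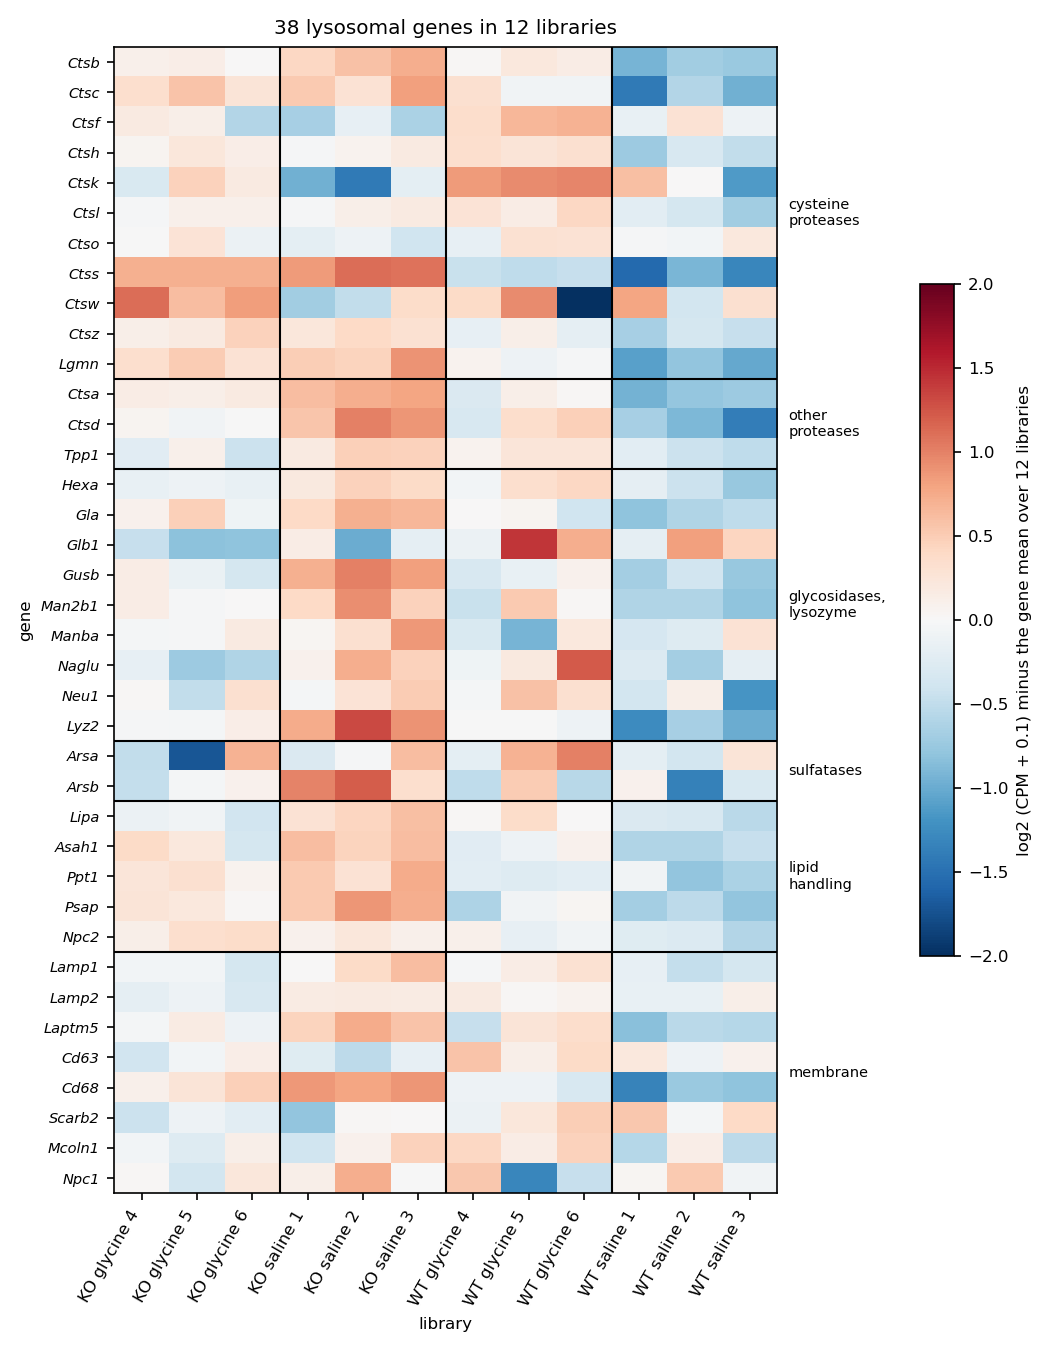
Level of the 38 lysosomal genes (rows, ordered by role) in the 12 libraries (columns), as log2 (CPM + 0.1) minus the mean of that gene over all libraries; red is above and blue below the mean. The WT saline columns are blue for most rows and the KO saline columns red. Ctsf, Ctsk, Ctso, Ctsw and Cd63 have their lowest group mean in KO saline.

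Library totals were 14.5 to 24.3 M estimated counts. Glra2 itself had 0 counts in all 12 libraries, so the counts do not check the genotype labels. Mitochondrially encoded genes took 26.9 to 36.2% of counts in KO glycine, 34.4 to 50.4% in KO saline, 30.6 to 38.5% in WT glycine and 50.0 to 64.7% in WT saline, and of the remaining counts the 38 genes took 3.71 to 3.80%, 4.72 to 5.40%, 3.25 to 3.55% and 1.93 to 2.38% in that order of groups. All 12 endothelial markers examined had counts in every library, but their summed level of 271 to 910 CPM was below the 8978 to 29177 CPM of 10 fibroblast markers and the 1851 to 7433 CPM of 18 macrophage and monocyte markers. Whether the 3 libraries of each group stem from separate mice is not labelled, so p-values measure the spread between these libraries, which may be technical.

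Promoters of the genes called in most comparisons are shown first, because a shared promoter motif is the known feature of many lysosomal genes. The transcription factor TFEB and its relatives bind an E-box, CACGTG, often extended to CACGTGAC (GTCACGTG on the other strand). The windows run from 250 bases before to 50 bases after the annotated start in RefSeq (GRCm38.p6), are 300 bases long and are written 5′ to 3′ on the gene's strand. Capitals mark CACGTG, CACGTGAC and GAGGAAGT (ACTTCCTC on the other strand), a motif of the type bound by the myeloid factor PU.1 that was picked with results of these data known. Overlapping matches are merged. Ctss (chr3:95526536-95526835, + strand), Lyz2 (chr10:117282223-117282522, − strand) and Ctsa (chr2:164833523-164833822, + strand, one of its windows) read as follows.
Ctss: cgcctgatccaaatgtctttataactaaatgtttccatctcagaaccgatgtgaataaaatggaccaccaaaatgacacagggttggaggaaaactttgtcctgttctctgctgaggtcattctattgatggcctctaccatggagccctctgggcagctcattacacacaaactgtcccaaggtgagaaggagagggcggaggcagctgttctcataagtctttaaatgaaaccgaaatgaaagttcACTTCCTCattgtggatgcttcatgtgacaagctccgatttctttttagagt
Lyz2: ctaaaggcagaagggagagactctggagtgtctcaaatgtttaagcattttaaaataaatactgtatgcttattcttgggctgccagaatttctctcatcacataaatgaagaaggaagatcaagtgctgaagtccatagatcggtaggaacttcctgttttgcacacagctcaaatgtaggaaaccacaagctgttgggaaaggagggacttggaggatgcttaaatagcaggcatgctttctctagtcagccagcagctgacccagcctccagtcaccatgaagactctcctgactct
Ctsa: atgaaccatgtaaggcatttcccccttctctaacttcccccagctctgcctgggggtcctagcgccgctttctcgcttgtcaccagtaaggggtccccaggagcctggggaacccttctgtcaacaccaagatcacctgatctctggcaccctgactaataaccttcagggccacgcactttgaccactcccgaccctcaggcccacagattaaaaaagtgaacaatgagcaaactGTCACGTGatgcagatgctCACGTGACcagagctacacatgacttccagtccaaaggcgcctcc

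The Ctss window, of the gene for the cathepsin of antigen-presenting cells, holds ACTTCCTC starting 2 bases before the annotated start and no E-box. The Lyz2 window holds none of these letters. The Ctsa window holds GTCACGTG and CACGTGAC, one starting 14 bases before and one 5 bases after the annotated start. RefSeq windows were found for 33 of the 38 genes. CACGTG occurs in 11 of these 33 (33.3%), against 8.09% of 27025 genes with a window, and CACGTGAC in either orientation in 9 (27.3%) against 2.55%. The 9 are Arsa, Ctsa, Ctsd, Gla, Glb1, Lamp1, Lgmn, Mcoln1 and Naglu. GAGGAAGT in either orientation occurs in 4 of 33 (12.1%), namely Ctsc, Ctss, Gla and Gusb, against 3.69%. A match describes the letters only, and binding was not measured.

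Cysteine proteases were the largest group of genes and included some of the most abundant. Per length, on the FPKM scale, Lyz2 had the highest mean over the 12 libraries at 5160, followed by Ctsc at 1170, Ctss at 997, Psap at 696 and Lgmn at 614. The lowest means were 1.52 FPKM for Npc1, 2.22 for Ctsw and 2.28 for Arsa.

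Ctss, which trims the invariant chain of MHC class II, had 1762, 1761 and 1765 CPM in KO glycine libraries 4 to 6, 1938, 2337 and 2272 in KO saline libraries 1 to 3, 787, 758 and 777 in WT glycine libraries 4 to 6 and 365, 568 and 435 in WT saline libraries 1 to 3. Every KO library was above every WT library, under either treatment, and within each genotype the glycine and saline libraries did not overlap. Ctsb, an abundant endopeptidase of most cells, had 2132, 2166 and 1996 CPM in KO glycine, 2647, 2985 and 3274 in KO saline, 2006, 2300 and 2182 in WT glycine and 1038, 1222 and 1178 in WT saline. Its glycine libraries of both genotypes lay together, between KO saline above and WT saline below. Lgmn, the asparaginyl endopeptidase that processes several cathepsins, had 1308, 1469 and 1258 CPM in KO glycine, 1458, 1414 and 1923 in KO saline, 1084, 962 and 1018 in WT glycine and 487, 597 and 511 in WT saline. All KO libraries of Lgmn were above all WT libraries, and WT saline was lowest.

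Ctsc, the dipeptidyl peptidase that activates granule serine proteases, had 3315, 3892 and 3136 CPM in KO glycine, 3770, 3225 and 4661 in KO saline, 3275, 2503 and 2494 in WT glycine and 981, 1757 and 1343 in WT saline. WT saline was below all other libraries, and the KO glycine and KO saline libraries overlapped. Ctsh, an aminopeptidase, had 435, 489 and 457 CPM in KO glycine, 410, 438 and 473 in KO saline, 528, 498 and 522 in WT glycine and 254, 337 and 299 in WT saline, and Ctsl, an endopeptidase that also acts in antigen processing, had 209, 228 and 228 CPM in KO glycine, 210, 232 and 241 in KO saline, 257, 237 and 285 in WT glycine and 184, 167 and 132 in WT saline. Both had their highest mean in WT glycine, with WT saline below the 9 other libraries. Ctsz, a carboxypeptidase, ran from 243 to 527 CPM with WT saline at the low end.

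Ctsk, Ctsf, Ctso and Ctsw did not follow the others. Ctsk, the collagen-degrading cathepsin best known from osteoclasts, had 35.3, 59.9 and 49.4 CPM in KO glycine, 22.4, 16.4 and 38 in KO saline, 78.5, 83.9 and 86.1 in WT glycine and 66.1, 43.9 and 19.8 in WT saline. Here WT glycine was above every other library and the group mean was lowest in KO saline. Ctsf had 19.7 to 28.0 CPM in KO saline against 28.4 to 38.4 CPM in WT saline, and Ctso 64.7 to 79.5 CPM in KO saline against 82.1 to 99.5 CPM in WT saline. Ctsw, a cathepsin of T and NK cells, stayed at 0.0528 to 4.57 CPM, and the lowest value, in WT glycine 6, is below the level that 3 counts give in any library (0.118 to 0.279 CPM).

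**Figure D2:**
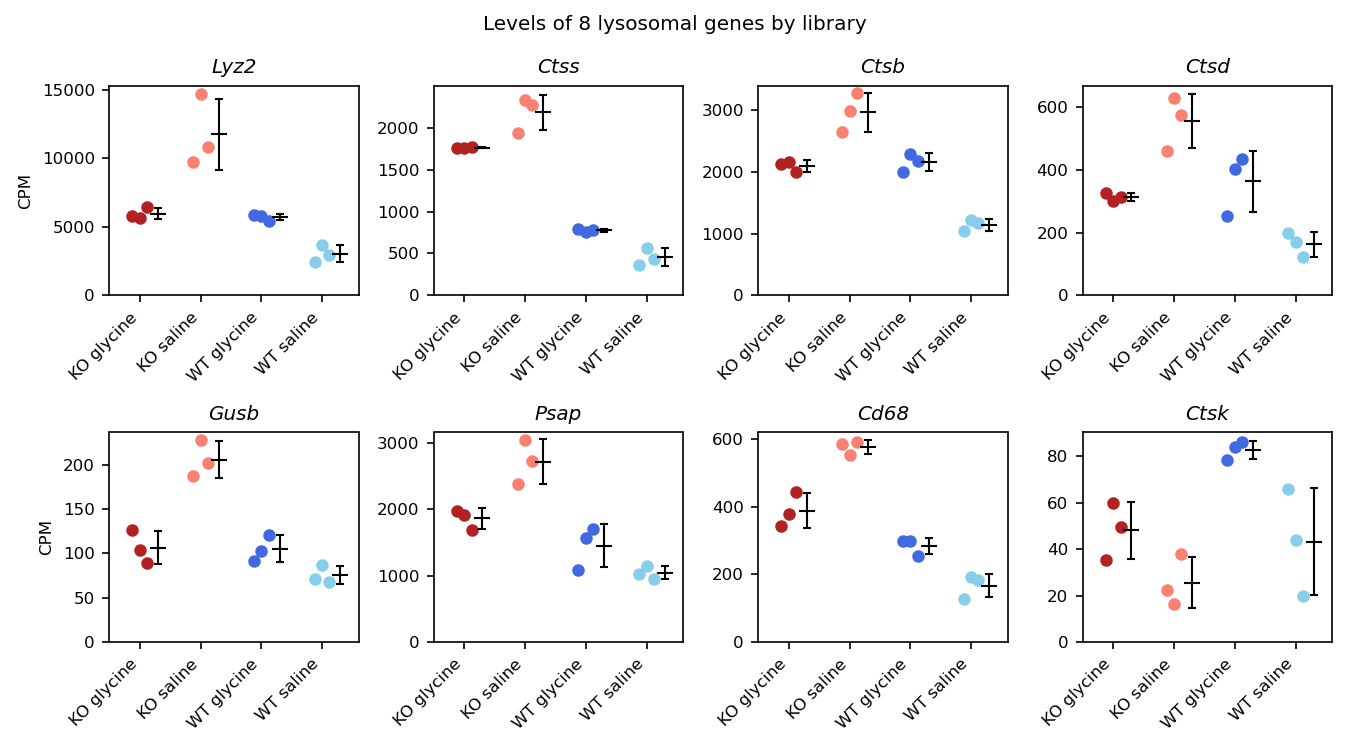
CPM of 8 lysosomal genes in each of the 12 libraries (points) by group, with the mean and SD of 3 libraries beside them; each axis starts at 0. For Lyz2, Ctss, Ctsb, Ctsd, Gusb, Psap and Cd68 the KO saline libraries are above all others, and for Ctsk WT glycine is highest.

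Among the other proteases, Ctsd, the main aspartic protease of lysosomes, had 326, 301 and 314 CPM in KO glycine, 461, 630 and 577 in KO saline, 253, 403 and 436 in WT glycine and 199, 169 and 121 in WT saline. Ctsa, a serine carboxypeptidase that also protects β-galactosidase and neuraminidase 1, had 552, 541 and 561 CPM in KO glycine, 760, 821 and 862 in KO saline, 407, 538 and 507 in WT glycine and 258, 291 and 301 in WT saline. For both genes KO saline was above and WT saline below all other libraries. Tpp1, a tripeptidyl peptidase, had 101, 127 and 87.6 CPM in KO glycine, 134, 164 and 162 in KO saline, 124, 140 and 139 in WT glycine and 102, 87.4 and 82.9 in WT saline, where KO glycine overlapped WT saline.

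Lyz2, the lysozyme of myeloid cells, had 5783, 5683 and 6452 CPM in KO glycine, 9750, 14679 and 10872 in KO saline, 5853, 5803 and 5440 in WT glycine and 2461, 3684 and 2956 in WT saline. KO saline was above all other libraries, WT saline below, and the glycine groups of both genotypes overlapped. Lyz2 is nearly identical to Lyz1, with which reads can be shared; Lyz1 stood at 25.8 to 81.4 CPM. Gusb (β-glucuronidase) had 126, 104 and 89 CPM in KO glycine, 187, 228 and 202 in KO saline, 90.7, 103 and 121 in WT glycine and 71, 86.9 and 67.5 in WT saline, the same order as Lyz2. Hexa, a glycosidase gene of ganglioside breakdown, had 214, 219 and 214 CPM in KO glycine, 271, 324 and 309 in KO saline, 228, 299 and 314 in WT glycine and 208, 176 and 140 in WT saline, with KO glycine between WT saline and the 2 other groups. Gla (α-galactosidase A) and Man2b1 (lysosomal α-mannosidase) also had their highest mean in KO saline, at 46.7 ± 5.44 and 149 ± 30.6 CPM against 19.9 ± 2.04 and 61.0 ± 4.74 CPM in WT saline (SD, n = 3 each).

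Glb1 (β-galactosidase) had a different order, with 14, 10.9 and 11 CPM in KO glycine, 21.5, 9.65 and 17.1 in KO saline, 17.7, 52 and 31.9 in WT glycine and 17.1, 34.3 and 26 in WT saline. All KO glycine libraries of Glb1 were below all WT glycine libraries, and the WT glycine libraries were spread. Naglu, Neu1 and Manba, further glycosidases, stayed between 5.47 and 30.8 CPM with wide spread within groups. The sulfatases Arsa (2.02 to 13.9 CPM) and Arsb (6.87 to 41.1 CPM) were of the same low order, and over 59.7% of the Arsb exon length other annotated genes overlap it on the opposite strand.

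The soluble proteins of lipid breakdown were led by Psap, the precursor of the saposins that present sphingolipids to their hydrolases, with 1974, 1919 and 1686 CPM in KO glycine, 2376, 3045 and 2728 in KO saline, 1081, 1567 and 1698 in WT glycine and 1029, 1143 and 954 in WT saline. KO saline was above all other libraries, and WT glycine 4 lay within the WT saline range while WT glycine 5 and 6 lay above it. Asah1, acid ceramidase, had 287, 255 and 174 CPM in KO glycine, 339, 300 and 340 in KO saline, 189, 206 and 235 in WT glycine and 146, 146 and 160 in WT saline. Its KO saline libraries were above all 9 others and its WT saline libraries below. Lipa (acid lipase) had 65.6 to 81.8 CPM in KO glycine, 105 to 130 CPM in KO saline, 86.3 to 111 CPM in WT glycine and 58.7 to 69.7 CPM in WT saline. Ppt1, a thioesterase that removes palmitate from proteins, had its mean highest in KO saline (341 ± 53.9 CPM) and lowest in WT saline (172 ± 47.1 CPM; SD, n = 3 each). Npc2, the soluble cholesterol carrier, was highest in KO glycine (302 ± 27.6 CPM) and lowest in WT saline (194 ± 23.5 CPM; SD, n = 3 each).

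Among the membrane proteins, Cd68, a glycoprotein of macrophage endosomes and lysosomes, had 343, 379 and 443 CPM in KO glycine, 584, 552 and 590 in KO saline, 297, 297 and 255 in WT glycine and 126, 191 and 183 in WT saline. The 4 groups of Cd68 did not overlap, in the order KO saline, KO glycine, WT glycine and WT saline from high to low. Laptm5, a leukocyte protein of lysosomal membranes, had 252, 290 and 242 CPM in KO glycine, 351, 434 and 385 in KO saline, 188, 309 and 328 in WT glycine and 145, 178 and 173 in WT saline, with KO saline above and WT saline below all others. Lamp1 and Lamp2, the most abundant coat proteins of the lysosomal membrane, varied less, at 342 to 730 and 291 to 414 CPM. Cd63, a tetraspanin of late endosomes, was lowest in KO saline at 326 to 417 CPM, against 437 to 540 CPM in WT saline. Scarb2, a sorting receptor of the lysosomal membrane, was the only gene of the 38 with its highest mean in WT saline (50.0 ± 10.1 CPM; SD, n = 3), and the calcium channel gene Mcoln1 and the cholesterol transporter gene Npc1 stayed between 3.03 and 33.6 CPM.

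KO against WT under saline gave the most called genes. Tests used the edgeR quasi-likelihood method with Benjamini-Hochberg adjustment over all 13928 tested, and rise and fall are used of an adjusted p below 0.05. Of the 38 lysosomal genes 23 rose in KO saline, all higher in KO, against 6.04% of all genes tested called higher and 5.26% called lower. By role, 7 of 11 cysteine proteases, 3 of 3 other proteases, 5 of 9 glycosidases, 5 of 5 lipid proteins and 3 of 8 membrane proteins rose. The median log2 fold change of the 38 genes was 0.79, against -0.02 for all genes tested, and in 26 genes every KO saline library was above every WT saline library, against 15.3% of all genes. The 3 genes with every KO library below every WT library were Cd63, Ctsf and Ctso, none of which passed the test, against 14.7% of all genes.

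The 4.78-fold higher Ctss in KO saline had a log2 fold change of 2.26 ± 0.16 (adjusted p = 1.11e-06), the largest and most significant of the 38 genes. Lyz2 rose by 1.96 ± 0.18 (adjusted p = 1.16e-05) and Cd68 by 1.79 ± 0.17 (adjusted p = 1.22e-05) on the log2 scale. The other proteases Ctsd and Ctsa rose by 1.77 ± 0.22 (adjusted p = 0.000116) and 1.52 ± 0.14 (adjusted p = 9.05e-06). Among cysteine proteases, Lgmn rose by 1.59 ± 0.15 (adjusted p = 1.22e-05), Ctsc by 1.51 ± 0.21 (adjusted p = 0.000266) and Ctsb by 1.37 ± 0.13 (adjusted p = 1.43e-05). Gusb rose by 1.45 ± 0.18 (adjusted p = 0.000116), Psap by 1.38 ± 0.17 (adjusted p = 0.000116), Laptm5 by 1.24 ± 0.19 (adjusted p = 0.000665) and Asah1 by 1.11 ± 0.18 (adjusted p = 0.000709). The 11 further genes that rose had log2 fold changes from 0.50 for Ctsl and Npc2 to 1.28 for Man2b1. Arsb, at 1.3 ± 0.40 (adjusted p = 0.0514), lay just outside the threshold. Of the 9 genes with CACGTGAC in a promoter window 5 rose, and of the 24 windowed genes without it 15, with median log2 fold changes of 0.82 and 0.80.

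When each library was left out in turn, 20 to 22 genes were called and 19 of the 23 kept their call in every fit, the others being Ctsh, Lamp1, Npc2 and Ctsl. With the mean log2 level of the 18 macrophage markers as a covariate, the edgeR fit called 0 of the 38, 3 had an unadjusted p below 0.05, and 20 of the 23 kept their direction. The 4 groups did not overlap in this marker level, so the covariate fits cannot separate it from genotype or treatment.

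**Figure D3:**
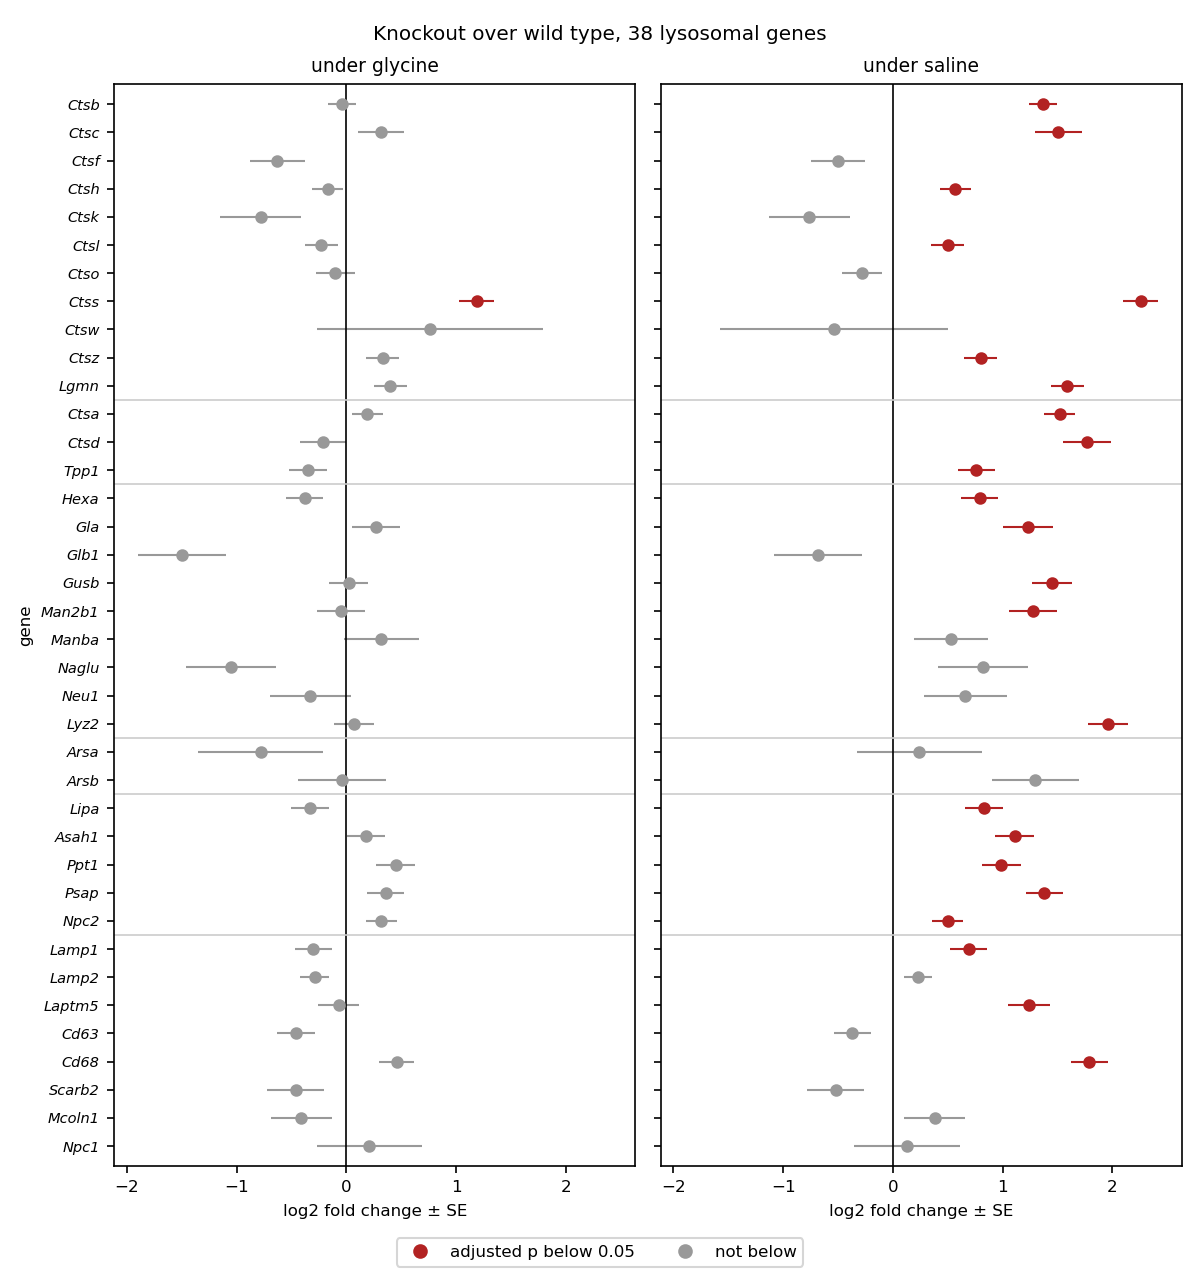
Log2 fold change with its SE of KO over WT for the 38 lysosomal genes under glycine (left) and saline (right); red marks an adjusted p below 0.05, and grey lines separate roles. Under saline 23 genes are red and right of 0, and under glycine Ctss alone is red.

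KO against WT under glycine was tested on different libraries from the comparison under saline. Only Ctss passed, 2.28-fold higher in KO, with a log2 fold change of 1.19 ± 0.16 (adjusted p = 0.000789); 1.5% of all genes were called higher and 1.06% lower. The median of the 38 genes was -0.06 against -0.01 for all genes. The next smallest p-values belonged to Glb1 at -1.5 ± 0.40 (adjusted p = 0.0666), Cd68 at 0.46 ± 0.16 (adjusted p = 0.196) and Cd63 at -0.46 ± 0.17 (adjusted p = 0.211). Every KO glycine library was above every WT glycine library in 6 genes (Ctss, Cd68, Lgmn, Ppt1, Npc2 and Ctsa) and below in 11, among them Glb1, Naglu, Hexa, Lipa, Lamp1, Lamp2 and Ctsk; 11.2% and 10.5% of all genes showed these patterns. Genes with large differences under saline were close here, with Lyz2 at 0.07 ± 0.18 (adjusted p = 0.944), Ctsb at -0.04 ± 0.13 (adjusted p = 0.953) and Gusb at 0.02 ± 0.18 (adjusted p = 0.989), with 95% intervals of -0.31 to 0.45, -0.32 to 0.24 and -0.36 to 0.40. Leaving out WT glycine 4 gave 2 called genes, and Ctss kept its call with any library left out. With the macrophage covariate Ctss was at 0.62 (adjusted p = 0.457).

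Glycine against saline in KO mice gave 2 called genes, both lower with glycine. Lyz2 fell by 0.98 ± 0.18 (adjusted p = 0.0146) and Gusb by 0.95 ± 0.18 (adjusted p = 0.0165) on the log2 scale; 0.201% of all genes were called lower and 0.926% higher. The median of the 38 was -0.39 against -0.01 for all genes, 31 of 38 estimates were below 0, and in 18 genes every KO glycine library was below every KO saline library, against 9.59% of all genes. Ctsa at -0.56 ± 0.14 (adjusted p = 0.0656) and Ctsd at -0.82 ± 0.21 (adjusted p = 0.083) had the next smallest p-values. By role, all 3 other proteases, all 9 glycosidases and both sulfatases had estimates below 0, while the cysteine proteases divided into 6 below and 5 above. Ctsk, at 0.91 ± 0.37 (adjusted p = 0.354), was the highest estimate apart from Ctsw. The 2 calls did not hold throughout: 0 genes were called without KO saline 2 or without KO glycine 5, the library labelled with 80 mg/kg per day, and 1 without KO saline 3, KO glycine 4 or KO glycine 6. Both were also lost with the macrophage covariate, at -0.62 for Lyz2 (adjusted p = 0.417) and -0.66 for Gusb (adjusted p = 0.411), and on the FPKM scale, at -0.66 for Lyz2 (adjusted p = 0.0798) and -0.67 for Gusb (adjusted p = 0.134) with limma-trend and a pseudocount of 1.

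Glycine against saline in WT mice gave 10 called genes, all higher with glycine, against 0.991% of all genes called higher and 0.395% lower. They were 6 cysteine proteases, 2 other proteases, Lyz2 and Cd68. This comparison shares the WT saline libraries with KO against WT under saline, as the one in KO mice shares the KO saline libraries. Ctsb rose by 0.92 ± 0.13 (adjusted p = 0.00436), Lgmn by 0.94 ± 0.15 (adjusted p = 0.00642) and Ctsh by 0.80 ± 0.14 (adjusted p = 0.01) on the log2 scale. Ctsd, with the largest change, rose by 1.16 ± 0.22 (adjusted p = 0.0153) and Ctsa by 0.77 ± 0.14 (adjusted p = 0.0121). Ctsc rose by 1.02 ± 0.21 (adjusted p = 0.0246), Lyz2 by 0.91 ± 0.18 (adjusted p = 0.02) and Ctss by 0.76 ± 0.15 (adjusted p = 0.0236). Cd68 rose by 0.76 ± 0.17 (adjusted p = 0.0352) and Ctsl by 0.69 ± 0.15 (adjusted p = 0.036). The median of the 38 was 0.56 against 0.00 for all genes, 34 estimates were above 0, and in 25 genes every WT glycine library was above every WT saline library, against 8.54% of all genes. None of the lipid proteins passed, with estimates from 0.23 for Ppt1 to 0.53 for Lipa; the estimates below 0 were those of Npc1, Manba, Ctsw and Scarb2.

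The number of calls in WT mice depended on single libraries and on the groups that share the estimate of spread. It was 3 without WT glycine 5 or WT glycine 6, 4 without WT saline 3, 5 without WT saline 1 and 14 without WT glycine 4, and Ctsb, Lgmn and Ctsh were called in every such fit. In an edgeR fit of the WT libraries alone 0 of the 38 passed, with 22 at an unadjusted p below 0.05; the smallest adjusted p was 0.0526 for Lgmn. With the macrophage covariate 0 passed, 3 had an unadjusted p below 0.05, and 9 of the 10 kept their direction.

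**Figure D4:**
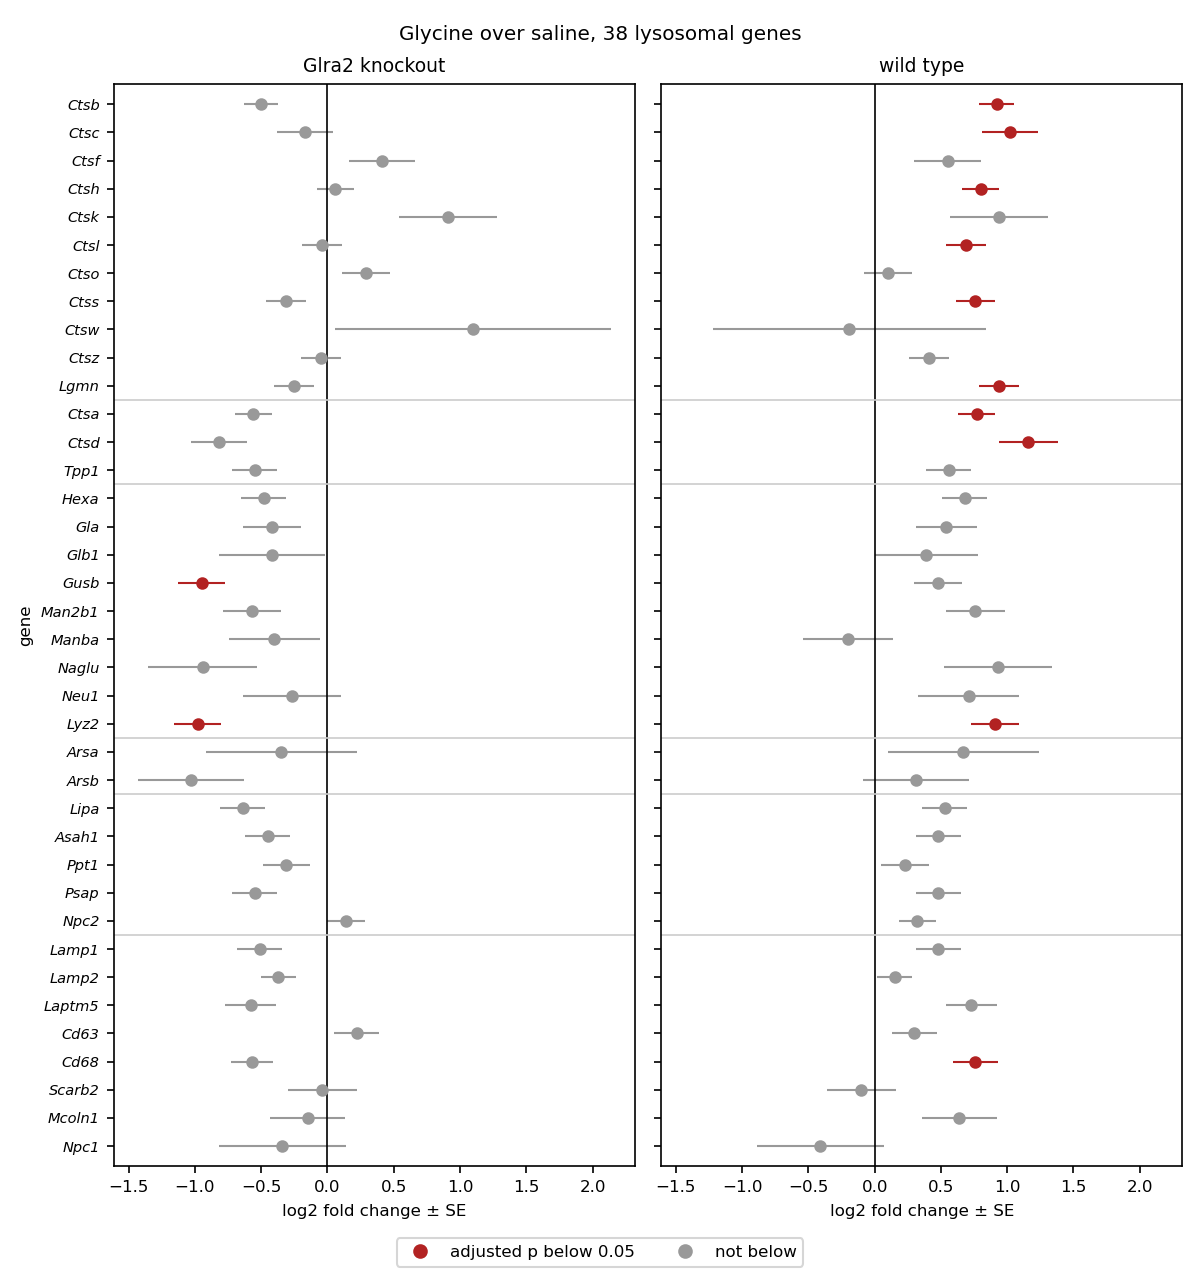
Log2 fold change with its SE of glycine over saline for the 38 lysosomal genes in KO mice (left) and WT mice (right); red marks an adjusted p below 0.05, and grey lines separate roles. In KO mice 31 estimates are left of 0, and in WT mice 34 are right of 0.

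The glycine by genotype interaction, the glycine difference in KO minus that in WT, was negative for 12 genes below the threshold, against 0.847% of all genes called lower and 0.273% called higher. Ctsd had -1.98 ± 0.30 (adjusted p = 0.00638), Lyz2 -1.89 ± 0.25 (adjusted p = 0.0021), Ctsb -1.42 ± 0.19 (adjusted p = 0.002) and Ctsa -1.34 ± 0.19 (adjusted p = 0.00443) on the log2 scale. The other 8 were Gusb, Lgmn, Cd68, Ctss, Hexa, Lipa, Laptm5 and Tpp1, from -1.07 for Ctss to -1.43 for Gusb. All 3 of the other proteases passed, as did 3 of 11 cysteine proteases and 3 of 9 glycosidases, 1 of 5 lipid proteins and 2 of 8 membrane proteins. The median was -0.98 against 0.02 for all genes. The 2 glycine comparisons share no library, and 28 of the 38 genes (73.7%) had an estimate above 0 in WT and below 0 in KO, against 26.3% of all genes tested. The interaction uses the same libraries as the 4 comparisons above and is no independent evidence beside them. It kept 7 to 16 calls when a library was left out, and Ctsd, Ctsa, Cd68, Lgmn, Ctsb, Gusb and Lyz2 were called in every fit. With the macrophage covariate 0 passed, with 3 at an unadjusted p below 0.05.

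By summed level, macrophage and monocyte markers were, like most of the lysosomal genes, lowest in WT saline and highest in KO saline. Their summed level, over 18 genes, was 5389 to 5589 CPM in KO glycine, 6970 to 7433 CPM in KO saline, 3851 to 4509 CPM in WT glycine and 1851 to 2985 CPM in WT saline, and none of the 18 was at 0 in any library. In KO against WT under saline 18 of 18 rose, against 6.04% of all genes. Among them were Csf1r, the receptor of macrophage growth factors (1.73 ± 0.23 (adjusted p = 0.000165)), the complement gene C1qa (1.65 ± 0.19 (adjusted p = 7.46e-05)) and Adgre1, which encodes F4/80 (1.51 ± 0.21 (adjusted p = 0.000308)). With glycine in WT 7 of 18 rose, against 0.991% of all genes. With glycine in KO 1 rose and 1 fell, against 0.926% and 0.201%. Of the 18 estimates there 15 were below 0 and 3 above, with a median of -0.47. In 10 markers every KO glycine library was below every KO saline library, against 9.59% of all genes, and in 2 every one was above. In KO against WT under glycine 4 rose, against 1.5% of all genes, and 8 had a negative interaction, against 0.847%. Under glycine the markers had a median log2 fold change of 0.39 in KO against WT, where the 38 genes had -0.06. The 4 that rose there were Ly6c2 at 2.96, Mpeg1 at 0.92, Cybb at 0.90 and Fcer1g at 0.83. Csf1r, C1qa and Adgre1 were at -0.03, 0.09 and 0.15, and Mrc1 and Mertk at -0.37 and -0.47. C1qa was at 1.03 ± 0.19 (adjusted p = 0.0149) with glycine in WT and -0.53 ± 0.19 (adjusted p = 0.256) with glycine in KO. The mean log2 marker level was 5.76 to 6.34 in WT saline and 6.86 to 6.95 in WT glycine. It was 7.38 to 7.53 in KO glycine and 7.75 to 7.90 in KO saline. These 4 ranges did not overlap, so marker level cannot be told apart from genotype or treatment in any of the covariate fits.

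**Figure D5:**
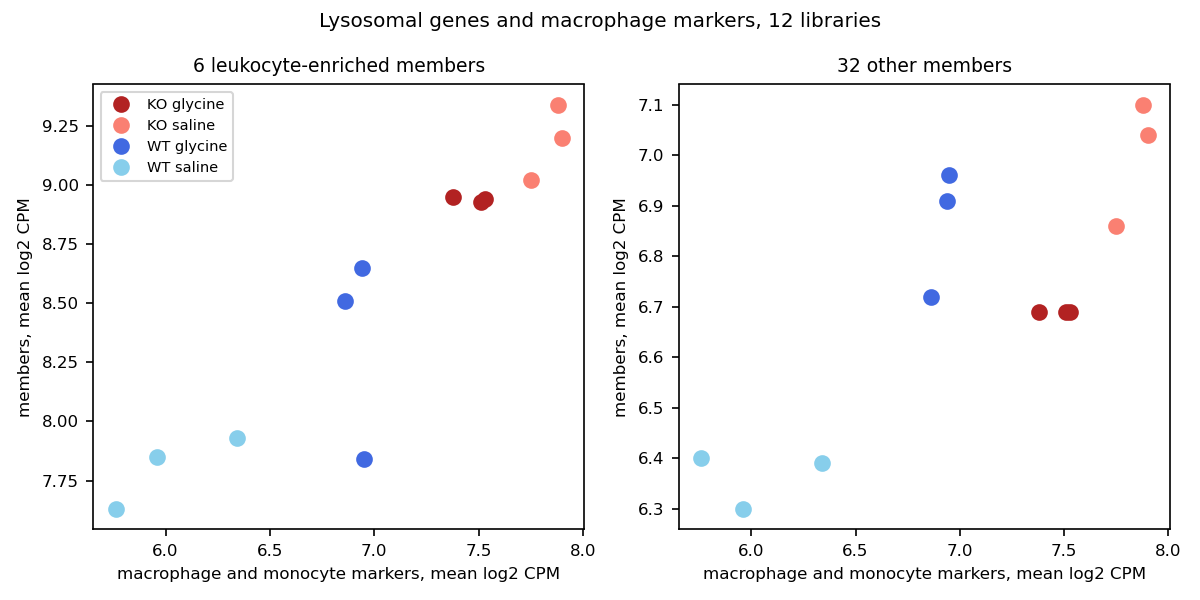
Mean log2 CPM of 6 leukocyte-enriched lysosomal genes (left) and the 32 others (right) against the mean log2 CPM of 18 macrophage and monocyte markers, 1 point per library, coloured by group. In the right plot the KO glycine points sit at 6.69, below the WT glycine points at 6.72 to 6.96, although their mean marker level is higher.

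The 38 genes were split into 6 with leukocyte-enriched expression (Ctss, Ctsc, Ctsw, Cd68, Laptm5 and Lyz2) and the 32 others. The mean log2 CPM of the 6 was 8.93 to 8.95 in KO glycine, 9.02 to 9.34 in KO saline, 7.84 to 8.65 in WT glycine and 7.63 to 7.93 in WT saline. The lowest WT glycine value, in library 6, is the one with the near-absent Ctsw. That of the 32 others was 6.69 in each KO glycine library, 6.86 to 7.10 in KO saline, 6.72 to 6.96 in WT glycine and 6.30 to 6.40 in WT saline. For the 32 others the KO glycine libraries were below the WT glycine libraries, while the macrophage marker mean was 7.38 to 7.53 in KO glycine and 6.86 to 6.95 in WT glycine. That mean covers markers of differing direction, with 14 of 18 estimates above 0 and 4 below in KO against WT under glycine. Relative to the marker mean, all 38 genes together were at -0.48 to -0.33 in KO glycine, -0.55 to -0.43 in KO saline, 0.14 to 0.24 in WT glycine and 0.30 to 0.84 in WT saline, in log2 units. In KO against WT under saline 5 of the 6 and 18 of the 32 rose, against 6.04% of all genes called higher. Their median log2 fold changes were 1.65 and 0.72, against -0.02 for all genes. With glycine in WT 4 of 6 and 6 of 32 rose, against 0.991% of all genes called higher. The medians there were 0.76 and 0.53, against 0 for all genes. In KO against WT under glycine the medians were 0.39 for the 6 and -0.19 for the 32.

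Markers of other cells also differed. Fibroblast markers were summed to 12004 to 14552 CPM in KO glycine, 8978 to 11163 CPM in KO saline, 21467 to 22743 CPM in WT glycine and 19616 to 29177 CPM in WT saline. In KO against WT under saline 10 of 10 fell, against 5.26% of all genes. Endothelial markers summed to 310 to 466 CPM in KO glycine, 271 to 451 CPM in KO saline, 358 to 499 CPM in WT glycine and 587 to 910 CPM in WT saline. In KO against WT under saline 3 of 12 fell, against the same 5.26%, and Pecam1 was at -0.62 ± 0.21 (adjusted p = 0.0756). Erythroid markers, mostly haemoglobin genes, ranged from 10177 to 64087 CPM. All 3 KO saline libraries were at 36570 CPM or more, and so was WT glycine 5 at 44075 CPM. Neutrophil markers were at 380 to 459 CPM in KO saline and 82.6 to 234 CPM in the 9 other libraries. The 10 T and NK cell markers summed to 243 to 264 CPM in KO glycine, 46.1 to 115 CPM in KO saline, 64.2 to 130 CPM in WT glycine and 51.2 to 100 CPM in WT saline. With glycine in KO their estimates were above 0 in 10 of 10, with a median of 2.09, and Trbc2 (3.98 ± 0.39 (adjusted p = 0.000359)), Lck (2.61 ± 0.36 (adjusted p = 0.00293)) and Trac (2.46 ± 0.44 (adjusted p = 0.0132)), genes of the T cell receptor and its kinase named here after their values were seen, rose. Of all genes tested 0.926% were called higher in that comparison. B cell markers also had their highest sum in KO glycine, at 622 to 658 CPM against 231 to 577 CPM in the 9 other libraries. With glycine in KO, though, 0 of the 5 B cell markers tested passed, with a median of 0.36. Smooth muscle markers summed to 79.0 to 89.9 CPM in KO glycine, 47.0 to 71.3 CPM in KO saline, 173 to 198 CPM in WT glycine and 132 to 228 CPM in WT saline. In KO against WT under saline 3 of 7 (Acta2, Tagln and Myh11) fell, against 5.26% of all genes. Adipocyte markers were at 144 to 263 CPM in KO libraries and 318 to 464 CPM in WT libraries. The part of these cell types in the lysosomal differences was not tested.

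A further 109 lysosome-related genes, in 7 lists, set the 38 in context; 106 of them were tested. In KO against WT under saline 19 of the 106 (17.9%) rose and 4 (3.77%) fell, against 6.04% of all genes called higher and 5.26% called lower, and their median was 0.37. Of the vacuolar ATPase, the proton pump that acidifies the lysosome, 4 of 17 rose (Atp6v0c at 1.01 ± 0.15 (adjusted p = 0.000561), Atp6ap1 at 1.04 ± 0.18 (adjusted p = 0.00126), Atp6v1b2 and Atp6v0b). Of other hydrolases and activators 6 of 23 rose, among them Plbd1, a phospholipase B-like protein (1.45 ± 0.14 (adjusted p = 1.17e-05)), the GM2 activator Gm2a (0.65 ± 0.15 (adjusted p = 0.012)) and the acid phosphatase Acp5 (1.29 ± 0.33 (adjusted p = 0.019)). Of other membrane proteins 2 of 18 rose and 2 fell: Slc11a1, the phagosomal metal transporter NRAMP1, at 2.1 ± 0.35 (adjusted p = 0.00113), Cln3 at 1.44 ± 0.35 (adjusted p = 0.0142), Laptm4b at -1.11 ± 0.22 (adjusted p = 0.004) and Laptm4a at -0.43 ± 0.13 (adjusted p = 0.0447).

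Of 12 genes of mannose-6-phosphate tagging and sorting 4 (33.3%) rose and 1 (8.33%) fell in KO against WT under saline, a share of lower genes near that of all genes. The calls included both receptors: M6pr, the cation-dependent receptor, was at 1.04 ± 0.15 (adjusted p = 3e-04), and Igf2r, the cation-independent receptor, at -1.55 ± 0.30 (adjusted p = 0.00317). Igf2r had 17.6, 28.2 and 21.7 CPM in KO glycine, 22.8, 14 and 15.7 in KO saline, 36.5, 24.1 and 23.5 in WT glycine and 52.3, 36.2 and 65.4 in WT saline, and M6pr had 158, 152 and 126 CPM in KO glycine, 193, 205 and 173 in KO saline, 131, 122 and 143 in WT glycine and 88.4, 92.5 and 96 in WT saline. By group mean WT saline was thus the highest for Igf2r and the lowest for M6pr. Ap1b1 (2.0 ± 0.41 (adjusted p = 0.00501)) and Ap3b1 (0.95 ± 0.25 (adjusted p = 0.0213)), subunits of clathrin adaptors, rose as well.

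Of 6 protease inhibitors, Cstb, the cytosolic cystatin B that inhibits cathepsins, rose (0.97 ± 0.15 (adjusted p = 0.000722)). Of 14 autophagy genes Atg7 (2.12 ± 0.42 (adjusted p = 0.00342)) and Uvrag (1.58 ± 0.32 (adjusted p = 0.00384)) rose and Map1lc3a (-1.11 ± 0.22 (adjusted p = 0.004)) fell. These shares were 14.3% and 7.14%, against 6.04% and 5.26% of all genes, in a list where 1 gene makes up 7.14%. Of 16 genes of the MiT/TFE factors and nutrient sensing at the lysosome 0 passed in the edgeR test, with 1 at an unadjusted p below 0.05; their median log2 fold change was 0.28.

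In the other pairwise comparisons the share of the 106 that passed was small. It was 1.89% higher and 0.943% lower with glycine in WT, against 0.991% and 0.395% of all genes, 0.943% higher with glycine in KO, against 0.926%, and 0.943% in each direction in KO against WT under glycine, against 1.5% and 1.06%. With glycine in WT, Scpep1, a serine carboxypeptidase (0.81 ± 0.15 (adjusted p = 0.0138)), and Acp5 (1.52 ± 0.33 (adjusted p = 0.0356)) rose and Laptm4b (-1.27 ± 0.23 (adjusted p = 0.0121)) fell; with glycine in KO, Map1lc3a rose (1.25 ± 0.22 (adjusted p = 0.0127)). In KO against WT under glycine Plbd1 was higher (0.96 ± 0.14 (adjusted p = 0.00153)) and Scpep1 lower (-0.70 ± 0.15 (adjusted p = 0.0188)). Scpep1 had 178, 162 and 159 CPM in KO glycine, 153, 141 and 154 in KO saline, 252, 290 and 267 in WT glycine and 174, 159 and 128 in WT saline, with WT glycine above all other libraries. Atp6ap1 had a negative interaction (-1.23 ± 0.25 (adjusted p = 0.0299)). The median of the 106 was 0.28 with glycine in WT, -0.17 with glycine in KO, -0.03 in KO against WT under glycine and -0.44 for the interaction. Over all genes these medians were 0, -0.01, -0.01 and 0.02. With glycine in WT 80 of the 106 estimates were above 0 and 26 below, and for the interaction 28 were above and 78 below. In 18.9% of the 106 every WT glycine library was above every WT saline library, against 8.54% of all genes.

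The spread between libraries of a group set what could be seen. The pooled SD within groups was smallest for Ctsb and Lamp2, at 0.11 on the log2 scale, and largest for Ctsw, at 1.34, and Arsa, at 0.74. Over the exons of Ctsa, Ctsb, Ctsd and Ctsl, other annotated genes overlap 22.3%, 16.3%, 31.5% and 28.2% of the length (GENCODE vM21). The labels do not state a stranded library, so reads of genes on opposite strands there cannot be told apart, and for Ctsd and Ctsl an overlapping gene is on the same strand.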

How the data were processed

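The deposited table gives, per gene and library, an expected count (RSEM) and an FPKM value computed by the authors; the submitters' processing notes list RSEM, Bowtie2 2.2.8, HISAT2 2.1.0 and StringTie 1.3.1. No source used here names a genome build. Of the counts 10.4% were not whole, and all were rounded. The 112 entries that lack a symbol made up 0.0124% or less of each library. Group and replicate follow the labels.

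Genes were filtered with filterByExpr and scaled by TMM, and 1 model with 4 groups was fitted with the edgeR 4.0.16 quasi-likelihood test (robust; R 4.3.3), checked on simulated data. P-values were adjusted over 13928 genes by Benjamini-Hochberg. CPM uses TMM library sizes; mean log2 CPM carries a prior count of 2. Fold changes carry the edgeR prior count and SE.

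The 38 genes, the 7 further lysosomal lists and the marker lists were chosen with earlier results of these data known. Full statistics are given in each pairwise comparison for genes past the threshold (the 12 smallest p), filled up to the 4 smallest p, in the interaction for the 4 smallest p, and for up to 4 genes of each other lysosomal list. Other genes are named as values. A result that this rule would name among the other hydrolases is not reported here. Adgre1, Csf1r, C1qa and Pecam1 are always considered, and promoters follow the number of calls.

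Alternatives were DESeq2 1.42.0 and its size factors, no filter and a strict filter (CPM of at least 1 in 6 libraries), FPKM with limma-trend 3.58.1 (pseudocounts 1 and 0.1), mitochondrially encoded genes left out, only the compared groups, the macrophage marker level as a covariate, a replicate block and each library left out. Counting error at these depths is small for most of the genes, and 3 counts equal 0.118 to 0.279 CPM.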

Additional observations from a re-analysis of the deposited data

Results flagged for a closer look

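The response to glycine differed between genotypes in 12 of the 38 lysosomal genes, by the interaction term of the edgeR quasi-likelihood fit (glycine difference in KO minus that in WT, log2, adjusted over 13928 genes). Of all genes tested 0.847% were called lower and 0.273% higher. Of the 12 genes, 7 kept their call with any library left out. Among proteases the value was -1.98 ± 0.30 (SE) for Ctsd, -1.42 ± 0.19 for Ctsb, -1.34 ± 0.19 for Ctsa, -1.19 ± 0.21 for Lgmn, -1.11 ± 0.24 for Tpp1 and -1.07 ± 0.22 for Ctss. Among glycosidases it was -1.89 ± 0.25 for Lyz2, -1.43 ± 0.25 for Gusb and -1.16 ± 0.24 for Hexa. For the acid lipase gene Lipa it was -1.16 ± 0.24, and for the membrane proteins Cd68 and Laptm5 -1.33 ± 0.23 and -1.31 ± 0.27. In all 12 the estimate was above 0 with glycine in WT and below 0 with glycine in KO. The 12 were chosen on the difference of these same estimates, which favours opposite signs, so this adds no support. Over all 38 genes, 28 (73.7%) had these signs, against 26.3% of all genes tested. With glycine in KO alone, Lyz2 and Gusb of these 12 passed, while Ctss at -0.31 ± 0.15 (adjusted p = 0.489) and Lgmn at -0.25 ± 0.15 (adjusted p = 0.601) had the smallest changes there. Macrophage markers had negative interactions in 8 of 18 genes. Their part in the 12 values was not tested, because the covariate fit cannot separate marker level from group.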

How the results depend on the processing

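The number of the 38 genes called held within 1.5 times under DESeq2 size factors, the strict filter and leaving out mitochondrial genes, in all 5 comparisons. With glycine in KO (2 called), DESeq2 gave 8, the compared groups alone 4, and FPKM 0 with either pseudocount. With glycine in WT (10), FPKM gave 25 and 24 (pseudocounts 1 and 0.1) and the compared groups alone 0. DESeq2 and the unfiltered fit each gave 2 in KO against WT under glycine (1), and DESeq2 gave 19 for the interaction (12). The macrophage covariate gave 0 in all 5 comparisons, and under it 5 values changed sign: with glycine in WT Ctss at -0.13, in KO against WT under saline Laptm5 at -0.18, Ctsc at -0.57 and Ctsh at -0.57, and in the interaction Ctss at 0.20. The cause was not tested, and the 4 groups did not overlap in marker level, so this fit cannot separate marker level from group.

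Left-out libraries gave 0 to 2 calls with glycine in KO, 3 to 14 with glycine in WT, 20 to 22 in KO against WT under saline, 1 to 2 under glycine and 7 to 16 for the interaction. FPKM values are not rescaled between libraries: with a pseudocount of 1 the median of all genes moved to 0.31 with glycine in WT, 0.19 with glycine in KO and 0.15 in KO against WT under saline, where the 38 genes had medians of 0.97, -0.06 and 1.0. In KO against WT under glycine the median of the 38 was 0.06 on that scale, as was that of all genes, and -0.06 in the edgeR fit.

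Libraries sharing a replicate number did not deviate together (correlations of -0.0339 to 0.0194, and 2 of 12 libraries correlated best with their own number), so the numbers were not taken as pairs. With the replicate block, 20, 1 and 4 genes were called in KO against WT under saline, under glycine and in the interaction. With 3 libraries a group, small changes of low genes such as Ctsw, Npc1 and Arsa could not be detected.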
